A study of Mus musculus with 4 samples.

Results

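A set of 10 genes that bring iron into microglia, store it, send it out and sense it were followed through 5 groups of mice given a brain-penetrant Trem2 antibody or its controls. They are Tfrc, Slc11a2 and Slc11a1 for import, Fth1, Ftl1 and Ncoa4 for storage and its release, Slc40a1 for export, Ireb2 and Aco1 for regulation, and Hmox1 for the breakdown of heme. They were taken by symbol from the 19737 genes of the deposited matrix, with earlier results of these data known. Tfrc has a second place in this experiment, because its protein is the receptor that the antibody transport vehicle (ATV) holds on to at the blood-brain barrier.

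Microglia from 20 mice were profiled 1 day after a single intravenous dose of 10 mg per kg, with 4 mice in each group. WT;TfRmu/hu mice received ATV:ISO (WT ATV:ISO) or ATV:4D9 (WT ATV:4D9), and AppSAA;TfRmu/hu mice received ATV:ISO (AppSAA ATV:ISO), 4D9 (AppSAA 4D9) or ATV:4D9 (AppSAA ATV:4D9). All 20 mice were homozygous for a chimeric transferrin receptor whose apical domain is human, the AppSAA mice also being homozygous for a humanized, mutated App allele, so no group had an unaltered receptor gene. 4D9 is an activating antibody against mouse Trem2, ATV:4D9 the same antibody with an Fc part that binds the human apical domain, and ATV:ISO an isotype control with that Fc part. ATV:ISO and ATV:4D9 can therefore both bind the transferrin receptor, 4D9 alone cannot, and mice given no antibody were not analysed here. The samples given the isotype are labelled ATV-DNP02, taken here as ATV:ISO because the design text lists an isotype control ATV. The labels give no ages. The list of animals in the reporting text has 1 entry naming WT and AppSAA together, male and 8 months old, and another for WT mice of mixed sex at 2 to 8 months, without saying which held the WT mice used here, of which 1 ATV:ISO mouse is recorded as female.

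The matrix held 74758 cells, 2193 to 6126 a mouse, and 17150296 to 102446549 UMIs (unique molecular identifiers, each a counted RNA molecule) a mouse. There were 4 pools, each with a mouse from all 5 groups, and mice are numbered by their pool. Of 74212 cell barcodes, 543 were found in more than 1 pool. All 8 fixed microglia markers were detected and their summed level was 12696 to 24814 UMIs per 1000000 UMIs of a mouse. The summed levels of the other cell types were low, with 9.57 to 53.2 for 6 endothelial markers, 11.9 to 39.2 for 7 border macrophage markers and 4.09 to 13.7 for 5 monocyte markers. Red cell markers reached 486 in AppSAA ATV:4D9 mouse 3, where 3 cells held 20 or more haemoglobin and other red cell UMIs, and were at most 1.61 elsewhere.

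Cells take up iron bound to transferrin, which the transferrin receptor carries into endosomes, where DMT1, the product of Slc11a2, moves the iron into the cytosol. Iron not used at once is stored in ferritin, a shell of heavy chains (Fth1), which oxidize iron, and light chains (Ftl1). NCOA4 carries ferritin to the lysosome so that its iron is released, and ferroportin, the product of Slc40a1, is the only known exporter of iron from animal cells. The iron regulatory proteins IRP1 (Aco1) and IRP2 (Ireb2) bind a short RNA hairpin, the iron-responsive element, when iron is scarce. Bound in the 5′ untranslated region they hold back translation, as in ferritin, and bound in the 3′ untranslated region they keep the mRNA from being degraded, as in Tfrc. Microglia and other macrophages also draw iron from engulfed cells, through heme oxygenase 1 (Hmox1) and NRAMP1 (Slc11a1) in the phagosome membrane.

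The hairpins found in some members are shown because their place, in the 5′ or the 3′ untranslated region, differs between these genes. The untranslated regions of GENCODE vM21 transcripts (GRCm38) were searched for a C, any 5 bases, CAGTGN and 5 further bases, in which the 5 bases before the loop of 6 pair with the 5 after it, G-U pairs allowed. Each site is given 5′ to 3′ on the gene's strand with 5 bases on either side. Capitals mark the bulged C and the loop of 6 bases.
Tfrc site 1, chr16:32631220-32631246: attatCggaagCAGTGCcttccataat
Tfrc site 2, chr16:32631599-32631625: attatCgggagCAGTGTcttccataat
Tfrc site 3, chr16:32631664-32631690: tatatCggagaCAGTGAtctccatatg
Tfrc site 4, chr16:32631711-32631737: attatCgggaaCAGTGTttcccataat
Fth1, chr19:9982733-9982759: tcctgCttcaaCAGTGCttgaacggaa
Ftl1, chr7:45459780-45459806: tcttgCttcaaCAGTGTttgaacggaa
Slc40a1, chr1:45925466-45925492: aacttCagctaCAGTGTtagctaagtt
The 4 Tfrc sites lie in the 3′ untranslated region and the others in 5′ untranslated regions. In all, 129 of 21020 genes (0.614%) held such a match in a 3′ untranslated region, and Tfrc alone held 3 or more there. A match in a 5′ untranslated region was found in 28 of 20840 genes (0.134%), among them Fth1, Ftl1 and Slc40a1. The other 6 members held no match to these letters. An element with another bulge or with unpaired bases in the stem would be missed, so members without a match, Slc11a2 among them, may still hold one. The sequences are those of the reference mouse and were not read from these animals.

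On GRCm38, Tfrc lies at chr16:32608920-32632794, plus strand, Fth1 at chr19:9980598-9985098, plus strand, Ftl1 at chr7:45457944-45459884, minus strand and Slc40a1 at chr1:45908068-45926523, minus strand. Slc11a2 lies at chr15:100387898-100425072, minus strand and overlaps Gm5475 on the other strand, and Ftl1 overlaps Gm22133 and Gm10252. Reads of Fth1 and Ftl1 could also be shared with processed copies of these genes, such as Ftl1-ps1, so their counts carry that uncertainty. Promoters from 250 bases before to 50 bases after the start were found for 7 members in the RefSeq table (GRCm38.p6), and not for Slc40a1, Slc11a2 and Hmox1. ACGTG, the core of the hypoxia response element, was found on either strand in 19.6% of 32851 promoters, and in those of Tfrc and Ncoa4. TGACNNNGC, the antioxidant response element, was found in 12.4% of promoters and among the 7 members in Ncoa4 alone. The E-box CACGTG (7.15% of promoters), which contains ACGTG, was found in none of the 7.

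Levels are given as CPM, the UMIs of a gene per 1000000 UMIs of the mouse, as mean ± SD over 4 mice unless stated. Differences are log2 fold changes ± SE from edgeR's quasi-likelihood test on counts summed per mouse, with p-values adjusted by Benjamini-Hochberg over the 14058 genes tested. The threshold for a call was an adjusted p below 0.05. Each pool held a mouse of every group, but this fit left the pool out, so differences between pools counted as spread within groups. An alternative fit held the pool as a block. Cells from ATV:4D9 mice held more RNA, 16780 ± 1725 UMIs per cell in WT ATV:4D9 and 17116 ± 1283 in AppSAA ATV:4D9 against 8612 ± 711 in WT ATV:ISO and 11520 ± 860 in AppSAA ATV:ISO. A gene can therefore make up a smaller share of the RNA and still have as many UMIs per cell, so both scales are given. All 10 members passed the filter on low counts.

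With ATV:4D9 in WT mice Tfrc, Fth1, Ftl1 and Slc11a2 rose and Slc40a1, Ncoa4 and Ireb2 fell, 7 of 10 members, in a comparison in which 63.3% of all genes were called. In AppSAA mice 5 of 10 members were called for ATV:4D9 against ATV:ISO (55.1% of all genes), with Tfrc, Fth1 and Slc11a2 higher and Slc40a1 and Ncoa4 lower. With the pool as a block, 9 of 10 were called in that comparison, and 70.7% of all genes. The AppSAA genotype itself, compared under ATV:ISO, came with 6 of 10 calls (28.2% of all genes), higher Tfrc, Fth1, Ftl1 and Slc11a1 and lower Slc40a1 and Ncoa4. With the block 9 of 10 were called there too, and 51% of all genes. Plain 4D9 against ATV:ISO gave 0 of 10 calls (0% of all genes). The shares of members called in WT and in both ATV:4D9 comparisons in AppSAA mice stand near those of all genes.

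**Figure D1:**
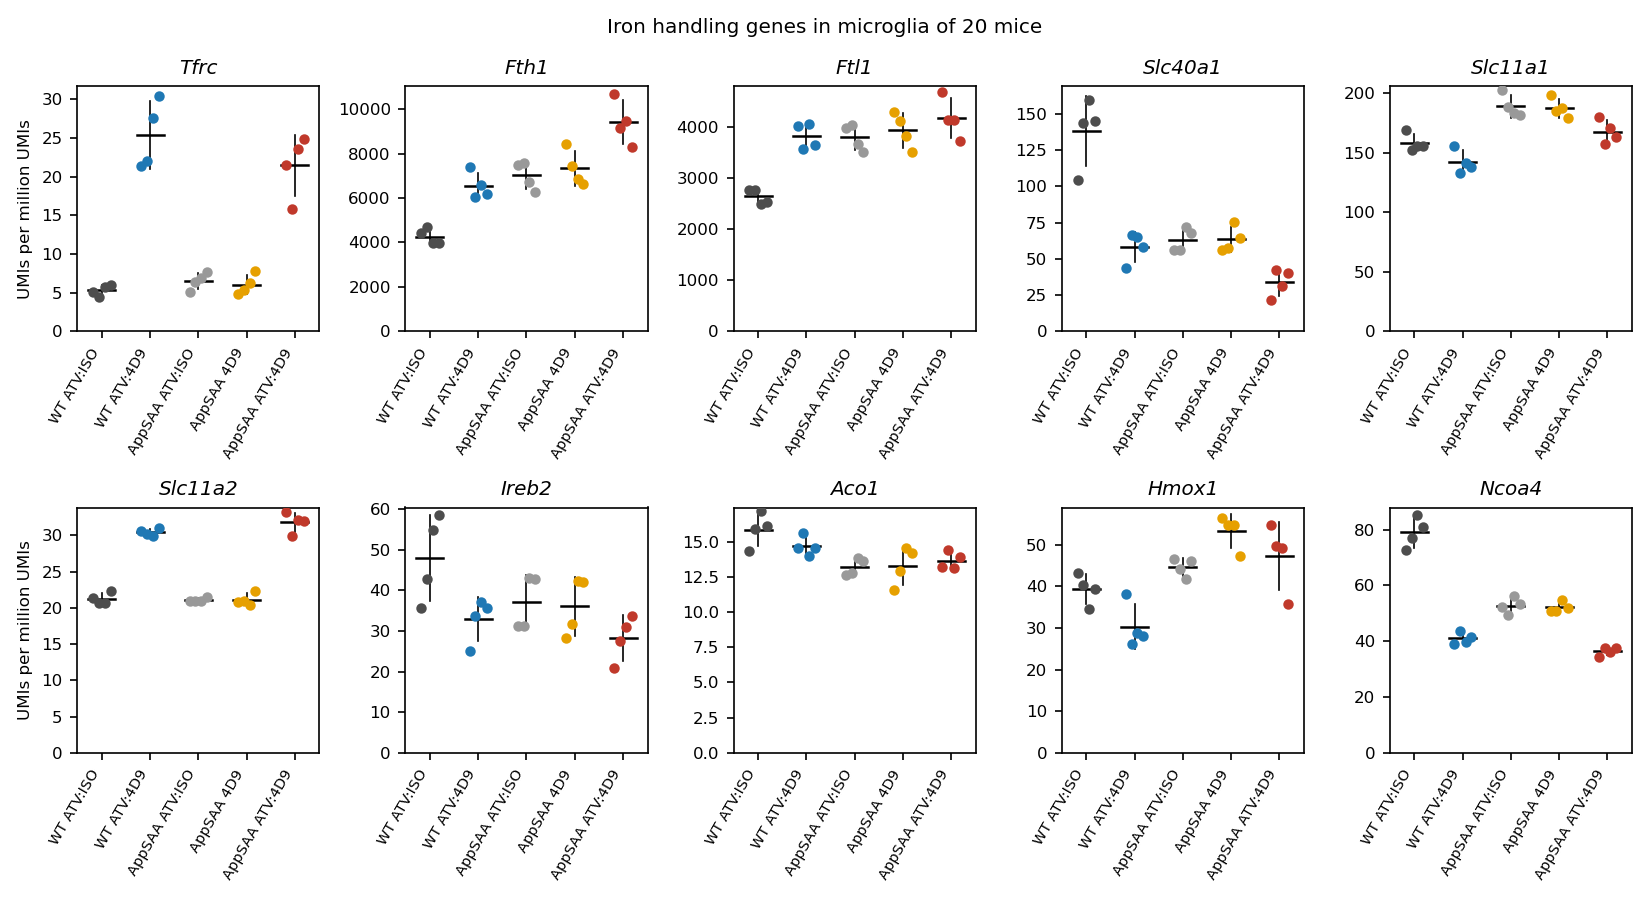
CPM of the 10 genes (y axes, each from 0) in the 5 groups (x axes), with 1 point per mouse, a horizontal bar for the mean of 4 mice and a vertical bar for the SD. The 8 mice given ATV:4D9 sit at 15.8 to 30.4 for Tfrc and all other mice at 4.49 to 7.76.

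Tfrc, the receptor for iron-loaded transferrin, was the member that changed most with ATV:4D9 against ATV:ISO or 4D9. Its level was 4.49, 5.07, 5.73 and 5.97 CPM in the 4 WT ATV:ISO mice and 21.3, 22.0, 27.7 and 30.4 in the 4 WT ATV:4D9 mice. In AppSAA mice it was 5.08, 6.31, 6.90 and 7.65 with ATV:ISO, 4.87, 5.28, 6.26 and 7.76 with 4D9 and 15.8, 21.5, 23.6 and 24.9 with ATV:4D9. All 8 mice given ATV:4D9 stood above all 12 others, whichever the genotype. The group mean was 4.77-fold higher with ATV:4D9 than with ATV:ISO in WT mice (log2 fold change 2.37 ± 0.16, adjusted p = 1.1e-10) and 3.31-fold higher in AppSAA mice (1.79 ± 0.15, adjusted p = 3.7e-09). Against plain 4D9, ATV:4D9 raised Tfrc by the same test (1.89 ± 0.15, adjusted p = 2.2e-09). Per the paper, this dose left more ATV:4D9 than 4D9 in the brain after 1 day, so equal exposure cannot be assumed between these groups. Plain 4D9 and ATV:ISO, of which only the latter binds the receptor, differed by -0.09 ± 0.15 on the log2 scale, and the 2 groups overlapped. The levels in AppSAA ATV:4D9 and WT ATV:4D9 mice also overlapped (-0.10 ± 0.14, adjusted p = 0.782).

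The effect of the AppSAA genotype on Tfrc under ATV:ISO was 0.47 ± 0.16, adjusted p = 0.0331, close to the threshold, and 0.48, adjusted p = 0.00260 with the pool as a block. The 4 AppSAA mice overlapped the 4 WT mice, although the AppSAA mouse was the higher one in 4 of 4 pools. Without WT ATV:ISO mouse 1, 2 or 3 or AppSAA ATV:ISO mouse 2, 3 or 4 the log2 fold change was 0.40 to 0.49, adjusted p = 0.0538 to 0.0984, and it was not called by limma-voom (adjusted p = 0.0954) or with only cells of 1000 to 25000 UMIs (adjusted p = 0.0509). The reads come from the 3′ end of the mRNA and do not tell the chimeric receptor from the mouse one. Tfrc is also abundant in brain endothelial cells, whose 6 markers summed to 9.57 to 13.3 CPM in WT ATV:4D9 and 18.5 to 24.9 in WT ATV:ISO. In AppSAA mice they summed to 37.8 to 53.2 with ATV:ISO, 39.5 to 49.9 with 4D9 and 13.5 to 26.5 with ATV:4D9, and their part in the level of Tfrc was not tested. The paper's methods name a sort for live CD11b+ cells in the AD mouse model. The 9 cycling markers rose with Tfrc, from 96.8 to 141 CPM in WT ATV:ISO to 1029 to 1236 in WT ATV:4D9 and from 138 to 171 in AppSAA ATV:ISO to 793 to 965 in AppSAA ATV:4D9, and this too was not tested.

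Slc11a2, whose product DMT1 carries iron out of the endosome, moved in the same direction as Tfrc by a smaller amount. It stood at 20.7, 20.7, 21.3 and 22.3 CPM in WT ATV:ISO mice and 29.9, 30.2, 30.6 and 31.0 in WT ATV:4D9 mice. In AppSAA mice the values were 20.9, 21.0, 21.0 and 21.4 with ATV:ISO, 20.3, 20.9, 20.9 and 22.4 with 4D9 and 30.0, 32.0, 32.1 and 33.2 with ATV:4D9. The 8 mice given ATV:4D9 were again above the 12 others, with narrow spreads within each group. The log2 fold change for ATV:4D9 against ATV:ISO was 0.63 ± 0.07, adjusted p = 2.7e-07 in WT and 0.67 ± 0.07, adjusted p = 1.6e-07 in AppSAA mice, and 0.66 ± 0.07, adjusted p = 2.3e-07 against 4D9. Between genotypes Slc11a2 was not called under ATV:ISO (0.17 ± 0.07, adjusted p = 0.0855) or under ATV:4D9 (0.21 ± 0.07, adjusted p = 0.0617). With the pool as a block both were called, at 0.17, adjusted p = 0.00696 and 0.20, adjusted p = 0.00150. Leaving out AppSAA ATV:4D9 mouse 1 or 4 also brought the first past the threshold at 0.17 to 0.20, adjusted p = 0.0406 to 0.0427, and leaving out WT ATV:4D9 mouse 1 or AppSAA ATV:4D9 mouse 2 the second at 0.24 to 0.25, adjusted p = 0.0365 to 0.0449. In plain CPM the ratio of means was 0.992 under ATV:ISO and 1.05 under ATV:4D9, the AppSAA mouse being higher in 2 and 3 of 4 pools. The median over all tested genes moved by -0.24 and -0.15 in CPM in these comparisons, and by -0.06 and -0.01 after the scaling used in the test.

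The NRAMP1 protein and its function were not measured here. The mRNA of Slc11a1, the gene for this phagosomal metal transporter, was higher in AppSAA than in WT mice. Its mean was 158 ± 7.49 CPM in WT ATV:ISO, 142 ± 9.89 in WT ATV:4D9, 189 ± 9.54 in AppSAA ATV:ISO, 187 ± 8.14 in AppSAA 4D9 and 168 ± 9.66 in AppSAA ATV:4D9. AppSAA mice were above WT mice under ATV:ISO with no overlap (0.44 ± 0.10, adjusted p = 0.00217) and under ATV:4D9 likewise (0.38 ± 0.10, adjusted p = 0.0147). The second call was lost without WT ATV:4D9 mouse 2 or AppSAA ATV:4D9 mouse 1, at 0.30 to 0.33, adjusted p = 0.0532 to 0.0616. That difference was 0.38, adjusted p = 4.5e-06 with the pool as a block. For ATV:4D9 against ATV:ISO the log2 fold change was -0.04 ± 0.10, adjusted p = 0.772 in WT mice, where its sign turned with other scalings. In AppSAA mice it was -0.10 ± 0.10, adjusted p = 0.419, and -0.10, adjusted p = 0.0497 with the pool as a block, and the CPM of the AppSAA ATV:4D9 mice lay below those of the AppSAA ATV:ISO mice.

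The ferritin heavy chain gene Fth1 rose with the AppSAA genotype and with ATV:4D9, and the light chain gene Ftl1 rose in part of these comparisons. Together they made up 0.647% to 1.54% of all UMIs of a mouse. Fth1 stood at 3962, 3981, 4406 and 4698 CPM in WT ATV:ISO and 6065, 6188, 6571 and 7389 in WT ATV:4D9 mice. In AppSAA mice it stood at 6266, 6738, 7512 and 7598 with ATV:ISO, 6625, 6854, 7443 and 8421 with 4D9 and 8323, 9145, 9452 and 10711 with ATV:4D9. No AppSAA ATV:ISO mouse was as low as any WT ATV:ISO mouse (0.91 ± 0.14, adjusted p = 5.0e-05), and the same held for AppSAA ATV:4D9 against WT ATV:4D9 (0.67 ± 0.14, adjusted p = 0.00269). ATV:4D9 raised Fth1 over ATV:ISO in WT (0.74 ± 0.14, adjusted p = 0.000121) and in AppSAA mice (0.49 ± 0.14, adjusted p = 0.00540). Over plain 4D9 the increase was 0.42 ± 0.14, adjusted p = 0.0155. These groups overlapped, and without AppSAA 4D9 mouse 3 or 4 or AppSAA ATV:4D9 mouse 1 it was 0.30 to 0.37, adjusted p = 0.0524 to 0.0796. It was 0.42, adjusted p = 7.9e-05 with the pool as a block.

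For the light chain Ftl1 the mean was 2642 ± 146 CPM in WT ATV:ISO, 3818 ± 256 in WT ATV:4D9, 3798 ± 246 in AppSAA ATV:ISO, 3928 ± 340 in AppSAA 4D9 and 4171 ± 396 in AppSAA ATV:4D9. ATV:4D9 raised it in WT mice (0.65 ± 0.12, adjusted p = 0.000105), and the genotype did under ATV:ISO (0.71 ± 0.12, adjusted p = 0.000147), in both cases without overlap of the groups. In AppSAA mice ATV:4D9 gave 0.21 ± 0.12, adjusted p = 0.151, with the AppSAA ATV:4D9 mouse the higher one in 4 of 4 pools, and with the pool as a block it was 0.20, adjusted p = 0.0139. Without AppSAA ATV:4D9 mouse 4 the value without the block was 0.30, adjusted p = 0.0453. Leaving out each mouse in turn gave 0.096 to 0.30, with adjusted p up to 0.521. Against plain 4D9 the log2 fold change of Ftl1 was 0.15 ± 0.12, adjusted p = 0.314, and 0.036 to 0.24 without 1 mouse. Between genotypes under ATV:4D9 it was 0.27 ± 0.12, adjusted p = 0.170, and 0.26, adjusted p = 0.00692 with the pool as a block.

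Ncoa4, the receptor that delivers ferritin to the lysosome, went the other way as a share of RNA. Its level was 72.6, 77.1, 80.8 and 85.3 CPM in WT ATV:ISO mice and 38.9, 39.8, 41.4 and 43.7 in WT ATV:4D9 mice, a 0.519-fold ratio of means. In AppSAA mice it was 49.4, 52.3, 53.2 and 56.1 with ATV:ISO, 50.9, 50.9, 52.0 and 54.6 with 4D9 and 34.4, 36.3, 37.4 and 37.5 with ATV:4D9. The groups given ATV:4D9 lay below those given ATV:ISO in both genotypes, and AppSAA ATV:ISO lay below WT ATV:ISO, with no overlap. The log2 fold changes were -0.83 ± 0.05, adjusted p = 4.8e-11 for ATV:4D9 in WT mice, -0.46 ± 0.05, adjusted p = 3.7e-07 in AppSAA mice, -0.46 ± 0.05, adjusted p = 4.8e-07 against 4D9, and -0.40 ± 0.05, adjusted p = 9.1e-06 for the genotype under ATV:ISO. Counted per cell it was not lower with ATV:4D9, at 0.682 ± 0.0950 UMIs per cell in WT ATV:ISO, 0.687 ± 0.0696 in WT ATV:4D9, 0.609 ± 0.0681 in AppSAA ATV:ISO and 0.622 ± 0.0417 in AppSAA ATV:4D9.

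Slc40a1, which encodes the iron exporter ferroportin, fell with the genotype and fell further with ATV:4D9. WT ATV:ISO mice had 104, 144, 145 and 160 CPM and WT ATV:4D9 mice 43.6, 58.1, 65.1 and 66.6. AppSAA mice had 55.9, 56.0, 68.2 and 71.7 with ATV:ISO, 56.3, 57.6, 64.7 and 75.3 with 4D9 and 21.5, 31.2, 40.4 and 42.3 with ATV:4D9. The lowest WT ATV:ISO mouse was above all 16 others, and the highest AppSAA ATV:4D9 mouse was below all others. The log2 fold change for ATV:4D9 was -1.13 ± 0.15, adjusted p = 1.1e-06 in WT mice and -0.83 ± 0.14, adjusted p = 6.8e-05 in AppSAA mice. For the genotype it was -0.95 ± 0.14, adjusted p = 4.2e-05 under ATV:ISO and -0.65 ± 0.14, adjusted p = 0.00412 under ATV:4D9. Against plain 4D9, ATV:4D9 gave -0.86 ± 0.15, adjusted p = 5.2e-05. Per cell the ratio of means was 0.816 for ATV:4D9 in WT mice, 0.787 in AppSAA mice and 0.607 for the genotype, and the groups overlapped in all of these on that scale. The ATV:4D9 or AppSAA mouse was the lower one per cell in 4 of 4 pools for ATV:4D9 in WT mice and for the genotype, and in 3 of 4 for ATV:4D9 in AppSAA mice. Cells with a UMI of 3 or more of the 7 border macrophage markers, 0.589% of all cells, held 0.930% of the Slc40a1 UMIs.

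Of the genes of the iron regulatory proteins, Ireb2 was called in 1 comparison and Aco1 in none in the fit without the block. Ireb2 (IRP2) had means of 48.0 ± 10.55 CPM in WT ATV:ISO, 32.9 ± 5.40 in WT ATV:4D9, 37.1 ± 6.78 in AppSAA ATV:ISO, 36.1 ± 7.26 in AppSAA 4D9 and 28.2 ± 5.58 in AppSAA ATV:4D9, with wide spreads and overlapping groups. In every comparison of ATV:4D9 with ATV:ISO or 4D9 the ATV:4D9 mouse was the lower one in 4 of 4 pools. The fall was called in WT mice (-0.43 ± 0.14, adjusted p = 0.0120), though not without WT ATV:ISO mouse 4 at -0.33, adjusted p = 0.0601. It was -0.42, adjusted p = 1.0e-07 in WT mice with the pool as a block. In AppSAA mice it was -0.33 ± 0.14, adjusted p = 0.0533 against ATV:ISO and -0.30 ± 0.14, adjusted p = 0.0800 against 4D9, and with the pool as a block -0.33, adjusted p = 2.7e-06 and -0.29, adjusted p = 1.1e-05. The first of these was also called without WT ATV:ISO mouse 1 or 4, WT ATV:4D9 mouse 1, AppSAA ATV:ISO mouse 1 or 2, AppSAA 4D9 mouse 1 or AppSAA ATV:4D9 mouse 4 (-0.39 to -0.33, adjusted p = 0.0373 to 0.0484) and the second without AppSAA 4D9 mouse 1 (-0.37, adjusted p = 0.0411). The genotype difference under ATV:ISO was -0.19 ± 0.14, adjusted p = 0.354, and -0.18, adjusted p = 0.00282 with the block. Per cell Ireb2 was not lower with ATV:4D9, at 1.33-fold the WT ATV:ISO mean in WT mice and 1.12-fold the ATV:ISO mean in AppSAA mice.

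Aco1, which encodes IRP1, a cytosolic aconitase when it holds an iron-sulfur cluster, was at 11.6 to 17.1 CPM in the 20 mice. The log2 fold change was 0.01 ± 0.06, adjusted p = 0.942 for ATV:4D9 in WT mice and -0.08 ± 0.06, adjusted p = 0.398 for the genotype under ATV:ISO. In plain CPM the AppSAA ATV:ISO mice, at 12.6 to 13.8, lay below the WT ATV:ISO mice, at 14.3 to 17.1, without a call. The median over all tested genes moved there by -0.24 in CPM and by -0.06 after the scaling used in the test. In AppSAA mice ATV:4D9 gave 0.12 ± 0.06, adjusted p = 0.109, and 0.12, adjusted p = 0.0438 with the pool as a block.

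Hmox1, which breaks heme down and frees its iron, was higher in AppSAA than in WT mice when both received ATV:4D9. WT ATV:4D9 mice had 26.1, 28.1, 28.9 and 38.2 CPM and AppSAA ATV:4D9 mice 35.7, 49.3, 49.6 and 54.7, the groups overlapping but the AppSAA mouse being the higher one in 4 of 4 pools (0.78 ± 0.15, adjusted p = 0.00148). Under ATV:ISO the means were 39.4 ± 3.60 in WT and 44.7 ± 2.19 in AppSAA mice (0.37 ± 0.16, adjusted p = 0.0864, and 0.37, adjusted p = 0.00594 with the pool as a block). That value was also past the threshold without WT ATV:4D9 mouse 1 or AppSAA ATV:4D9 mouse 4 (0.37 to 0.40, adjusted p = 0.0313 to 0.0468). ATV:4D9 in WT mice gave -0.26 ± 0.16, adjusted p = 0.160, -0.27, adjusted p = 0.0248 with the block and -0.43, adjusted p = 0.0167 without WT ATV:4D9 mouse 1. AppSAA 4D9 mice had 47.3, 54.6, 54.7 and 56.5 CPM and lay above the AppSAA ATV:ISO mice, at 41.8, 44.2, 46.0 and 46.7, without a call (0.27 ± 0.15, adjusted p = 1.00), and 13.5% of the Hmox1 UMIs of the 4D9 group came from 5 cells.

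**Figure D2:**
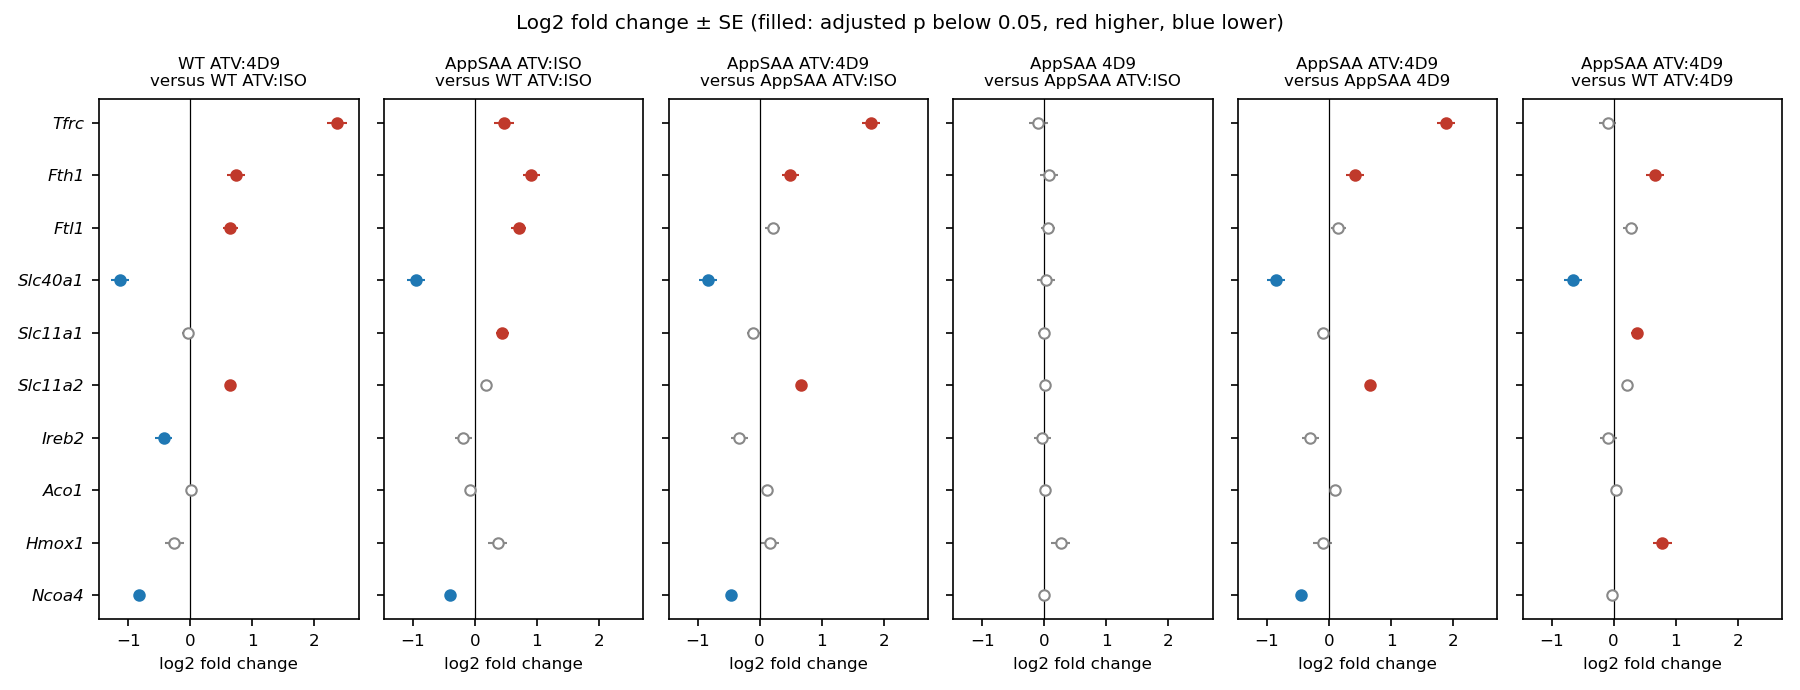
Log2 fold change ± SE (x axes) of the 10 genes (y axis) in the 6 comparisons between groups, from the edgeR fit. Filled points have an adjusted p below 0.05, red for higher and blue for lower in the group named first. Tfrc stands furthest to the right in the 3 comparisons of ATV:4D9 with ATV:ISO or 4D9, and no point is filled for 4D9 against ATV:ISO.

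In the comparison of plain 4D9 with ATV:ISO, the 10 log2 fold changes ran from -0.09 to 0.27. edgeR called 0 genes there, with 79 at an unadjusted p below 0.05, limma-voom 0 and DESeq2 1, and 0 of the 10 members were at an unadjusted p below 0.05. Without any difference a share of about 0.05 of the 14058 genes tested would be expected below that value. The p-values of this edgeR fit, which left the pool out, therefore ran high. With the pool as a block 0 genes were called as well. ATV:4D9 against plain 4D9 gave 5 of 10 calls (54.3% of all genes), with Tfrc, Fth1 and Slc11a2 higher and Slc40a1 and Ncoa4 lower. AppSAA ATV:4D9 against WT ATV:4D9 gave 4 of 10 calls (11.8% of all genes, 1661 genes, or 4409 with the pool as a block), with Fth1, Slc11a1 and Hmox1 higher and Slc40a1 lower.

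Whether ATV:4D9 acted differently in the 2 genotypes was tested as an interaction, the log2 fold change in AppSAA mice minus that in WT mice. Ncoa4 was the 1 of 10 members called (9.14% of all genes), at 0.37 ± 0.07, adjusted p = 0.00319, its fall as a share of RNA being smaller in AppSAA mice. Per cell its ratio of means for ATV:4D9 against ATV:ISO was 1.01 in WT and 1.02 in AppSAA mice, described with no test. With the pool as a block 4 members were called, and the calls over all genes went from 1285 to 4284, 30.5%. The added calls were Tfrc (-0.57 ± 0.21, adjusted p = 0.107 without the block, -0.58, adjusted p = 0.00585 with it), Ftl1 (-0.44 ± 0.17, adjusted p = 0.126, then -0.45, adjusted p = 0.00218) and Hmox1 (0.42 ± 0.22, adjusted p = 0.282, then 0.41, adjusted p = 0.0370). Tfrc and Ftl1 rose less in AppSAA than in WT mice in that blocked fit, and Hmox1 was at -0.26 ± 0.16 in WT and 0.16 ± 0.15 in AppSAA mice without the block. Leaving out 1 mouse moved Hmox1 to between -0.43 and -0.17 in WT and between 0.031 and 0.31 in AppSAA mice. Ftl1 was also called without AppSAA ATV:4D9 mouse 1, at -0.55, adjusted p = 0.0265.

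Per cell the increases of Tfrc, Fth1, Ftl1 and Slc11a2 with ATV:4D9 were larger, and Ncoa4 and Ireb2 were not lower. Tfrc went from 0.0461 ± 0.00911 UMIs per cell in WT ATV:ISO to 0.431 ± 0.118 in WT ATV:4D9, 9.36-fold, and from 0.0754 ± 0.0176 to 0.370 ± 0.0894 in AppSAA mice, 4.91-fold. Fth1 went from 36.6 ± 2.11 to 110 ± 12.9 UMIs per cell in WT mice and from 80.6 ± 4.17 to 161 ± 22.9 in AppSAA mice. Slc11a1, Aco1 and Hmox1, which were no higher as a share of RNA in WT ATV:4D9, had 1.75, 1.79 and 1.5 times the WT ATV:ISO mean per cell, with no overlap of the groups. The median over all tested genes moved by 0.80 on the log2 scale per cell in that comparison, by -0.16 in CPM and by -0.05 after the scaling used in the test. Relative to it Tfrc, Fth1, Ftl1 and Slc11a2 were higher on all 3 scales, and Slc40a1, Ncoa4, Ireb2 and Hmox1 were lower on all 3. Slc11a1 and Aco1 stood close to it. Values per cell were described with no test.

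**Figure D3:**
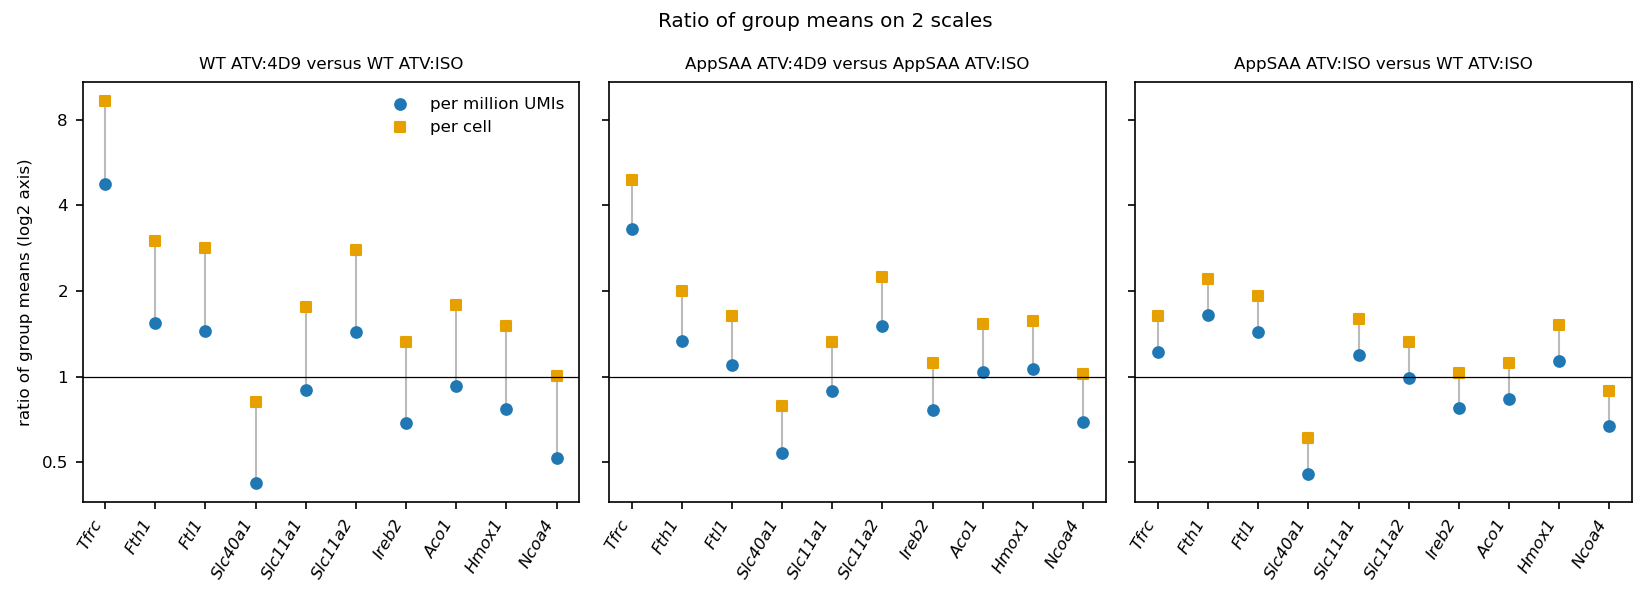
Ratio of group means (y axis, log2 scale) of the 10 genes in CPM (blue circles) and per cell (orange squares) in 3 comparisons. The Tfrc ratio is 4.77 in CPM and 9.36 per cell in WT mice, and that of Ncoa4 moves from 0.519 to 1.01.

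The deposited annotation divides the cells into 6 clusters, numbered 0 to 5. Against the other cells, clusters 0 and 3 were higher in all 7 homeostatic markers, cluster 3 also in 9 of 9 immediate early markers, cluster 1 in 10 of 10 amyloid-associated markers, cluster 4 in 9 of 9 cycling markers and cluster 5 in 9 of 9 interferon markers. Cluster 2 was higher in 0 to 3 markers of each list and is left unnamed. The shares of cells differed widely with ATV:4D9, clusters 0 and 3 holding 60.4% and 35.8% of cells in WT ATV:ISO but 3.11% and 4.56% in WT ATV:4D9, and clusters 2 and 4 going from 1.35% and 0.351% to 47.8% and 40.0%. In AppSAA ATV:ISO cluster 1 held 38.3% and in AppSAA ATV:4D9 13.5%. The clusters were made from the expression of these cells, so levels between clusters are described with no test, over mice with 20 or more cells in the cluster.

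Tfrc had its highest medians in cluster 2, 21.1 (5.05 to 36.1) CPM over 20 mice, and cluster 4, 18.7 (5.70 to 33.4) over 16 mice. Clusters 0, 1, 3 and 5 had 5.52 (0 to 16.9), 5.23 (0 to 8.07), 5.70 (3.55 to 12.1) and 7.74 (0 to 25.7). Cluster 2 was above cluster 3 in 20 of 20 mice, while clusters 2 and 4 did not separate, cluster 2 being the higher in 9 of 16 mice. Within cluster 2 the Tfrc level was 15.1 ± 5.84 in WT ATV:ISO and 24.1 ± 9.07 in AppSAA ATV:ISO against 24.9 ± 4.94 in WT ATV:4D9 and 27.3 ± 5.12 in AppSAA ATV:4D9, where the ATV:ISO groups had few cells, 1.35% and 2.34% of the total. In cluster 4 it was 9.49 ± 2.67 in AppSAA ATV:ISO and 27.5 ± 5.11 in AppSAA ATV:4D9, and in cluster 5 3.76 ± 1.52 and 15.9 ± 3.01. The Slc11a2 median was likewise highest in cluster 2, 33.9 (23.7 to 41.2), above cluster 3 in 20 of 20 mice, but above cluster 5, the next highest, in 12 of 17 mice.

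Fth1 and Slc40a1 had their extremes in clusters 0 and 1, in opposite directions. The median of Fth1 was lowest in cluster 0, 4206 (3517 to 5915) CPM, and 3, 4875 (3940 to 7964), and highest in cluster 1, 9586 (8037 to 15419), with clusters 2, 5 and 4 at 8291 (6071 to 10886), 7856 (6221 to 12357) and 7688 (5824 to 9621). These medians are over 16 mice in clusters 1 and 4, 17 in cluster 5 and 20 in the others. Cluster 0 was below every other cluster in every mouse that had both, while clusters 1 and 5 did not separate, cluster 1 being the higher in 9 of 14 mice. Cluster 2 was above cluster 5 in 6 of 17 mice, against the order of their medians. The median of Slc40a1 was highest in cluster 0, 123 (84.3 to 176), then 3, 94.5 (59.1 to 151), and lowest in cluster 1, 27.6 (16.7 to 69.1), with clusters 2, 4 and 5 at 52.5 (19.6 to 98.3), 41.7 (24.1 to 75.1) and 38.1 (13.1 to 80.7). Slc40a1 in cluster 1 was above cluster 5 in 5 of 14 mice. Ncoa4 had the same top as Slc40a1, with 76.0 (47.6 to 93.6) in cluster 0 and 61.6 (37.6 to 79.4) in cluster 3 against medians of 35.7 to 41.3 in the other 4. Slc11a1 was highest in cluster 1, 217 (177 to 265), above cluster 2, the next highest, in 15 of 16 mice. The Ireb2 median was highest in cluster 0, 46.0 (22.0 to 62.8), above cluster 3, the next highest, in 14 of 20 mice. The Hmox1 median was highest in cluster 2, 63.8 (33.3 to 247), which lay above cluster 1, 57.7 (38.6 to 118), in 11 of 16 mice but above cluster 5, 43.9 (23.4 to 86.1), in 9 of 17 mice, so that clusters 2 and 5 did not separate. Aco1 had medians of 12.5 to 15.3 in the 6 clusters.

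**Figure D4:**
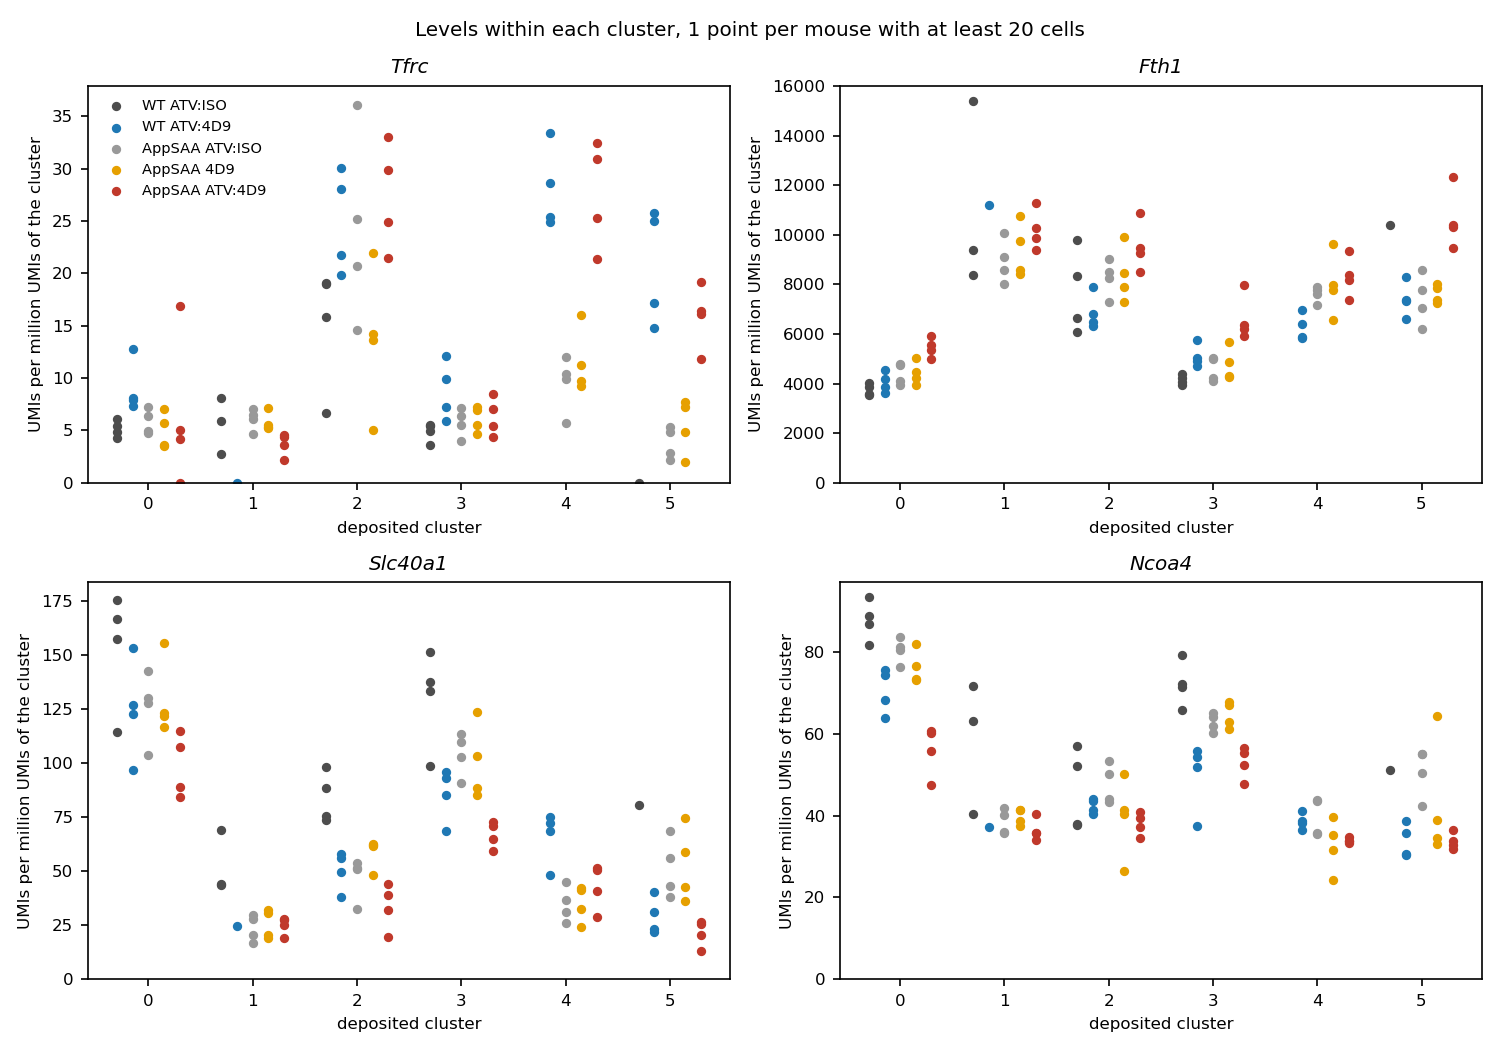
CPM of Tfrc, Fth1, Slc40a1 and Ncoa4 (y axes, each from 0) in the 6 deposited clusters (x axes), with 1 point per mouse that had at least 20 cells in the cluster, coloured by group. Tfrc is high in clusters 2 and 4, Fth1 is low and Slc40a1 and Ncoa4 are high in clusters 0 and 3.

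Within clusters 0 and 3 together, the cells with homeostatic markers, 4 of 10 members were called for ATV:4D9 in WT mice (6.85% of 12545 genes called). Tfrc (0.87 ± 0.23, adjusted p = 0.0202) and Ftl1 (0.48 ± 0.11, adjusted p = 0.00914) were higher, and Slc40a1 (-0.45 ± 0.11, adjusted p = 0.0151) and Ncoa4 (-0.39 ± 0.08, adjusted p = 0.00501) were lower. Fth1 was at 0.37 ± 0.12, adjusted p = 0.0773, and 0.36, adjusted p = 2.2e-05 with the pool as a block. The Tfrc call was lost without WT ATV:ISO mouse 2 or WT ATV:4D9 mouse 3 or 4, at 0.72 to 0.81, adjusted p = 0.0522 to 0.110, and that of Slc40a1 without WT ATV:ISO mouse 3 or WT ATV:4D9 mouse 1, at -0.39, adjusted p = 0.0614 to 0.0669. The fit with the block gave 0.91, adjusted p = 0.000119 for Tfrc and -0.44, adjusted p = 8.5e-06 for Slc40a1. The WT ATV:4D9 mice had 164 to 428 cells and 1481353 to 3724017 UMIs in these clusters, so Tfrc rests on few UMIs there. Cluster 3 made up 37.2% of these cells in WT ATV:ISO and 60.04% in WT ATV:4D9, and its part in these values was not tested.

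In AppSAA mice the same cells gave 2 of 10 calls for ATV:4D9 against ATV:ISO (4.49% of genes), with Fth1 higher (0.60 ± 0.12, adjusted p = 0.00473) and Slc40a1 lower (-0.46 ± 0.12, adjusted p = 0.0238). Tfrc was at 0.21 ± 0.25, adjusted p = 0.768, and at -0.0070 to 0.44 without 1 mouse. The AppSAA ATV:4D9 mice had 105 to 419 cells and 983429 to 4268379 UMIs in these clusters, so Tfrc rests on few UMIs there. Cluster 3 made up 44.8% of these cells in AppSAA ATV:ISO and 62.1% in AppSAA ATV:4D9, which was not tested either. The Slc40a1 call was lost without AppSAA ATV:ISO mouse 2, 3 or 4 or AppSAA ATV:4D9 mouse 1 or 4, at -0.45 to -0.41, adjusted p = 0.0530 to 0.115. It held in the fit with the pool as a block, at -0.47, adjusted p = 2.6e-05. With the pool as a block 6 members were called (15.2% of genes), adding Ftl1 (0.36, adjusted p = 0.000260), Slc11a1 (0.27, adjusted p = 0.00139), Hmox1 (0.56, adjusted p = 0.00127) and Ncoa4 (-0.28, adjusted p = 0.00866). Ftl1, at 0.37 ± 0.11, adjusted p = 0.0599 without the block, was also called without AppSAA ATV:ISO mouse 1 or AppSAA ATV:4D9 mouse 2 or 3 (0.41 to 0.43, adjusted p = 0.0445 to 0.0487). Over all fits without 1 mouse it was 0.23 to 0.43, with adjusted p up to 0.306. The genotype difference under ATV:ISO gave 0 of 10 calls in these cells (0.327% of genes) by edgeR and by limma-voom, with 1 member at an unadjusted p below 0.05, and 2 with the block (4.54% of genes), Fth1 (0.23, adjusted p = 0.0162) and Slc40a1 (-0.28, adjusted p = 0.00101). Their values over all cells were 0.91 ± 0.14 and -0.95 ± 0.14. Plain 4D9 against ATV:ISO gave 0 of 10 calls by edgeR and limma-voom (0% of genes, with 54 genes and 0 members at an unadjusted p below 0.05).

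In cluster 1, the cells with amyloid-associated markers, ATV:4D9 against ATV:ISO gave 0 of 10 calls by edgeR and limma-voom (1.51% of 12182 genes), with 1 member, Tfrc, at an unadjusted p below 0.05. Tfrc had the opposite sign there to that over all cells, -0.66 ± 0.18, adjusted p = 0.0883, with 6.07 ± 1.02 CPM in AppSAA ATV:ISO and 3.64 ± 1.10 in AppSAA ATV:4D9, and it was called with the pool as a block (-0.68, adjusted p = 0.00624) and without AppSAA ATV:ISO mouse 1 (-0.74, adjusted p = 0.0489). Plain 4D9 gave 0 of 10 calls in cluster 1 by edgeR and limma-voom (0% of genes, with 53 genes and 0 members at an unadjusted p below 0.05).

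The genotypes were compared under ATV:4D9 in the 3 clusters that antibody filled. The log2 fold change of Fth1 was 0.55 ± 0.15, adjusted p = 0.0543 in cluster 2, 0.50 ± 0.12, adjusted p = 0.0181 in cluster 4 and 0.60 ± 0.13, adjusted p = 0.00477 in cluster 5. Cluster 2 gave 0 of 10 calls (2.07% of 9618 genes) with 5 members at an unadjusted p below 0.05, 2 calls by limma-voom (384 of all genes), and 4 with the pool as a block (7.38% of genes), Fth1 (0.55, adjusted p = 0.00226), Slc40a1 (-0.52, adjusted p = 0.00161), Slc11a1 (0.28, adjusted p = 0.0256) and Slc11a2 (0.23, adjusted p = 0.0267). Fth1 was also called there without WT ATV:4D9 mouse 1 or AppSAA ATV:4D9 mouse 4 (0.62 to 0.65, adjusted p = 0.0202 to 0.0380) and Slc40a1 without WT ATV:4D9 mouse 1 or AppSAA ATV:4D9 mouse 2 (-0.65 to -0.61, adjusted p = 0.0190 to 0.0300). Over all fits without 1 mouse Fth1 was 0.44 to 0.65 (adjusted p up to 0.265) and Slc40a1 -0.65 to -0.34 (adjusted p up to 0.383). Cluster 4 gave 2 of 10 (2.76% of 11342 genes), Fth1 and Slc40a1 (-0.54 ± 0.14, adjusted p = 0.0326). Both calls depended on single mice, Fth1 being at 0.39 to 0.49, adjusted p = 0.0581 to 0.0938 without WT ATV:4D9 mouse 2, 3 or 4 or AppSAA ATV:4D9 mouse 1 and Slc40a1 at -0.52 to -0.41, adjusted p = 0.0956 to 0.158 without WT ATV:4D9 mouse 2, 3 or 4 or AppSAA ATV:4D9 mouse 1 or 3. With the block Fth1 was at 0.49, adjusted p = 0.000580 and Slc40a1 at -0.54, adjusted p = 2.1e-05. Slc11a1 was then called as well (0.25, adjusted p = 0.0150), beside 9.79% of genes. Cluster 5 gave 2 of 10 (6.87% of 9869 genes), Fth1 and Slc11a1 (0.38 ± 0.11, adjusted p = 0.0406), and the latter was lost without any 1 of WT ATV:4D9 mouse 2, 3 or 4 or AppSAA ATV:4D9 mouse 1, 2, 3 or 4, at 0.32 to 0.41, adjusted p = 0.0600 to 0.136. Slc11a1 was at 0.38, adjusted p = 0.00241 in cluster 5 with the block. Tfrc did not pass the test between genotypes in any of the 3, at 0.21 ± 0.17, 0.06 ± 0.12 and -0.30 ± 0.18.

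Beyond the members, 83 genes of iron and heme metabolism were listed by role, of which 68 passed the filter. ATV:4D9 in WT mice raised 26 and lowered 10 of the 68, 52.9% of them beside 63.3% of all genes, with a median log2 fold change of 0.11 beside -0.05 over all genes. In AppSAA mice it also raised 26 and lowered 10, 52.9% beside 55.1% (median 0.15 beside -0.03), and these comparisons share no mice. The AppSAA genotype under ATV:ISO came with 10 higher and 9 lower, 27.9% beside 28.2% (median -0.01 beside -0.06), plain 4D9 with 0, ATV:4D9 against 4D9 with 27 and 9 (52.9% beside 54.3%), and AppSAA against WT under ATV:4D9 with 3 and 3 (8.82% beside 11.8%). The share of the list that was called was near or below that of all genes in each.

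The counts by role stand beside 63.3% of all genes called in WT and 55.1% in AppSAA mice, and describe single genes rather than roles. The mitochondrial iron import and iron-sulfur cluster genes gave 8 higher and 1 lower of 17 for ATV:4D9 in WT mice and 8 higher and 1 lower of 17 in AppSAA mice, 52.9% called in each. Heme synthesis gave 3 higher and 2 lower of 10 and 4 higher and 2 lower of 10, led by Alad, an early enzyme of the pathway (1.56 ± 0.14, adjusted p = 4.9e-09 in WT mice). Fech, which inserts the iron in the last step, was lower (-0.38 ± 0.06, adjusted p = 1.7e-05). The cytosolic iron chaperones and regulators gave 5 higher and 1 lower of 8 and 4 higher and 2 lower of 8, led by Bola2 (1.67 ± 0.14, adjusted p = 2.3e-09), which works with Glrx3 in cytosolic iron-sulfur transfer.

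The transferrin cycle genes moved both ways, with 3 higher and 4 lower of 10 in WT and 3 higher and 3 lower of 10 in AppSAA mice. Steap3, the endosomal ferric reductase, was the largest at 1.56 ± 0.108 and 4.20 ± 0.387 CPM in WT mice (1.54 ± 0.16, adjusted p = 6.6e-08), while Trf, transferrin itself, went from 904 ± 59.2 to 484 ± 16.02 CPM (-0.79 ± 0.09, adjusted p = 3.2e-07). The NRF2 and BACH1 genes gave 2 higher and 1 lower of 7 and 3 higher and 1 lower of 7. Srxn1 (1.45 ± 0.21, adjusted p = 5.9e-06) and Txnrd1 (1.31 ± 0.09, adjusted p = 6.8e-11), targets of NRF2, were higher, and Bach1, the heme-sensing repressor of Hmox1 and the ferritin genes, was lower (-0.95 ± 0.07, adjusted p = 1.7e-10). Heme transport and breakdown gave 2 higher and 0 lower of 7 and 2 higher and 1 lower of 7, the largest being Blvra, biliverdin reductase (0.40 ± 0.11, adjusted p = 0.00451). Lipid peroxide defence gave 3 higher and 0 lower of 5 and 2 higher and 0 lower of 5, with Gpx4, which detoxifies lipid peroxides, the largest in WT mice (0.39 ± 0.14, adjusted p = 0.0167). Among the other transcripts with an iron-responsive element 1 of 3 was lower in WT mice, Cdc14a (-0.67 ± 0.14, adjusted p = 0.000213), and the 1 gene tested for export and oxidation, ceruloplasmin (Cp), was not called (-0.22 ± 0.33, adjusted p = 0.574).

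For the AppSAA genotype under ATV:ISO, the largest called genes of each role were Slc25a37, the mitochondrial iron importer mitoferrin 1 (-0.69 ± 0.12, adjusted p = 0.000161), Bola2 (0.89 ± 0.14, adjusted p = 4.5e-05), Cp (0.86 ± 0.32, adjusted p = 0.0490), Gpx4 (0.54 ± 0.14, adjusted p = 0.00564), Hfe, a partner of the transferrin receptor (-0.52 ± 0.09, adjusted p = 0.000242), Bach1 (-0.45 ± 0.07, adjusted p = 2.4e-05) and Ppox of heme synthesis (-0.31 ± 0.08, adjusted p = 0.00616). No gene of heme transport and breakdown or of the other hairpin transcripts was called. In the interaction 3 of 68 listed genes were called, 4.41% beside 9.14% of all genes. Among them Bola2 (-0.72 ± 0.19, adjusted p = 0.0198) rose less and Bach1 (0.53 ± 0.09, adjusted p = 0.000898) fell less in AppSAA than in WT mice.

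The 5 genes whose log2 CPM ran most like that of Tfrc over the 20 mice, of 8025 genes with a mean of at least 10 CPM, were Ipo5 (r = 0.992), Pcna (r = 0.991), Mybbp1a (r = 0.990), Flna (r = 0.989) and Uhrf1 (r = 0.987). The mice given ATV:4D9 stand apart from the others in these genes, so the pooled r mostly describes that split, and mice also share pools and differ in depth. After group means were removed r was 0.765 to 0.910 for the 5. Pcna, the sliding clamp of DNA replication, was at 61.1 ± 7.56 CPM in WT ATV:ISO and 365 ± 52.5 in WT ATV:4D9, and Ipo5, an importer of proteins into the nucleus, at 38.0 ± 3.73 and 104 ± 10.8. Of the other members, Slc11a2 came closest with r = 0.967 (rank 133 of 8025) over the 20 mice and Ncoa4 was the most opposed with r = -0.80. After group means were removed the order was another, with r = 0.677 for Ireb2, 0.601 for Slc11a2, 0.208 for Ncoa4 and -0.628 for Fth1, the most opposed of the members. Differences between pools remain in these r. Mean log2 deviations in pools 1 to 4 were -0.18, -0.21, 0.12 and 0.27 for Tfrc and -0.35, -0.10, 0.21 and 0.24 for Ireb2. They were 0.15, 0.03, -0.04 and -0.13 for Fth1 and 0.01, -0.03, -0.02 and 0.04 for Slc11a2. The part of the pool in r was not tested.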

How the data were processed

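The authors deposited UMI counts per gene and cell, without normalization, with an annotation of each cell's pool, mouse, group and cluster. Per the labels, cells were captured with 10x Genomics 3′ chemistry and assigned to mice by CellPlex tags, and Cell Ranger version 6.1.1 and mm10 are named in the submitters' processing notes. The paper's methods name Seurat for clustering. Filters on cells and genes, the sort (CD11b+ or CD45+/CD11b+) and the tissue (cortex, or cortex and hippocampus) are not stated or differ between the texts read. The paper refers to its Supplementary Methods for such details, which were not read here. No doublet caller was run here.

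Sums were made for each mouse and for each cluster within a mouse (of at least 20 cells, with at least 3 mice in each group compared). edgeR version 4.0.16 in R version 4.3.3 was run with filterByExpr, TMM scaling and glmQLFTest on the 20 mice in 1 fit, and clusters 0 and 3 were merged. The fits were tested on simulated counts. Alternatives were RLE scaling, no filter, limma-voom (limma version 3.58.1), DESeq2 (version 1.42.0), the pool as a replicate block, cells with 1000 to 25000 UMIs, sums of at least 50 cells and leaving out each mouse. According to the labels each pool held 1 mouse of every condition, so the pool pairs the mice. The deviations of mice of 1 pool from their group means correlated at 0.279 to 0.808 in all 40 pairs.

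The text names the 10 members in each comparison, the 5 genes most correlated with Tfrc, and the largest called gene of each role in the list of 83 in WT ATV:4D9 and in AppSAA ATV:ISO against WT ATV:ISO. Trf, Fech, Txnrd1 and the genes named in the interaction were chosen after their values were seen. The largest called gene of 1 role is not reported here. Members and lists were chosen with earlier results of these data known. The mice of a group are separate animals.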

Additional observations from a re-analysis of the deposited data

Results flagged for a closer look

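Slc11a2 in AppSAA ATV:ISO mice had 1 mouse apart from the other 3, at 21.4 CPM against 20.9 to 21.0, a gap that is large only beside the very narrow range of the group. Chance alone marks about 1 group in 20 by this test.

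The change of Ncoa4 with ATV:4D9, as a share of RNA, differed between the genotypes by 0.37 on the log2 scale (adjusted p = 0.00319, edgeR), the fall being 0.83 in size in WT and 0.46 in AppSAA mice. Counted per cell there was no fall in either genotype, the ratios of means being 1.01 in WT and 1.02 in AppSAA mice. AppSAA ATV:ISO mice already had a lower share, 52.8 ± 2.78 CPM against 79.0 ± 5.42 in WT ATV:ISO.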

How the results depend on the processing

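Of 1692 alternative values of 78 member log2 fold changes, 1577 kept their direction and their side of the threshold, 60 passed it newly, 41 no longer passed it and 14 changed sign. The sign changes all concerned values without a call. The other 82 member values, which no fit called, had the other sign in 83 of 1208 alternatives. Slc11a1 for ATV:4D9 against ATV:ISO in WT mice was 0.0015 with DESeq2, 0.0014 with RLE scaling, 0.035 with no filter and -0.12 to 0.028 without 1 mouse. Without 1 mouse Aco1 in that comparison was -0.020 to 0.066, Hmox1 for ATV:4D9 against 4D9 -0.23 to 0.049, and between genotypes under ATV:4D9 Ireb2 was -0.17 to 0.0043 and Tfrc -0.17 to 0.032.

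The replicate block by pool raised the number of members called from 7 to 8 for ATV:4D9 in WT mice (74.6% of all genes), 6 to 9 for the genotype under ATV:ISO (51%), 4 to 6 for it under ATV:4D9 (31.4%) and 5 to 6 for ATV:4D9 against 4D9 (69.9%). It raised it to 9 for ATV:4D9 against ATV:ISO in AppSAA mice (70.7%), 4 in the interaction (30.5%), 2 for the genotype (4.54%) and 6 for ATV:4D9 in AppSAA mice (15.2%) in clusters 0 and 3, 1 for ATV:4D9 in cluster 1 (7.77%) and 4 between genotypes in cluster 2 (7.38%). The block changed no call of a member other than those given with it above. In cluster 2 limma-voom called 2 members (384 of all genes) and sums of at least 50 cells 1. Without 1 mouse the number of members called was 1 to 2 in the interaction, 1 to 3 for ATV:4D9 in AppSAA mice in clusters 0 and 3, 0 to 1 in cluster 1 for ATV:4D9 against ATV:ISO, 0 to 2 in cluster 2, 0 to 2 in cluster 4 and 1 to 2 in cluster 5. With sums of at least 50 cells Slc40a1 in cluster 4 was no longer called (adjusted p = 0.0834) and Hmox1 was (0.0487). Ireb2 for ATV:4D9 against ATV:ISO in AppSAA mice was called with RLE scaling, limma-voom and DESeq2 (adjusted p = 0.0415 to 0.0484), and Slc11a2 for the genotype under ATV:ISO with cells of 1000 to 25000 UMIs (0.0473).

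Over all genes the block moved the calls from 3960 to 7166 for the genotype under ATV:ISO, from 1661 to 4409 under ATV:4D9, and in clusters 0 and 3 from 859 to 2770 in WT mice, from 41 to 570 for the genotype and from 563 to 1912 in AppSAA mice. In clusters 1, 2, 4 and 5 it moved them from 184 to 947, 199 to 710, 313 to 1110 and 678 to 1556, and limma-voom gave 384 in cluster 2 and 514 in cluster 4. Without 1 mouse they were 1103 to 1719 between genotypes under ATV:4D9, 969 to 1861 in the interaction, 124 to 190 and 135 to 235 in clusters 1 and 2, 571 to 1026, 17 to 35 and 330 to 586 in clusters 0 and 3, and 174 to 327 and 408 to 1034 in clusters 4 and 5. The cause of these shifts was not tested. Tfrc, Aco1 and Slc11a2 had as few as 87, 246 and 366 UMIs in a mouse, which limits small differences in these genes. Within clusters the counts were smaller still, the lowest Tfrc level of a mouse being 0 CPM in clusters 0, 1 and 5.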

Other observations

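The 2 ferritin chains did not move in step. UMIs of Fth1 per UMI of Ftl1 stood at 1.61 ± 0.0607 (SD, n = 4) in WT ATV:ISO, 1.72 ± 0.0936 in WT ATV:4D9, 1.85 ± 0.0505 in AppSAA ATV:ISO, 1.87 ± 0.0769 in AppSAA 4D9 and 2.25 ± 0.0371 in AppSAA ATV:4D9. The 4 AppSAA ATV:4D9 mice, at 2.21 to 2.29, lay above all 16 others, whose highest value was 1.96. This ratio was looked at after the values of both genes were seen and was not tested.

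Hmox1 was carried in part by very few cells. Of 74758 cells, 6 held 50 or more Hmox1 UMIs, 5 in AppSAA 4D9 mice with 1166 of the 8664 Hmox1 UMIs of that group, and 1 in an AppSAA ATV:ISO mouse with 493 of 49244 UMIs of the cell. Without that cell the mouse was at 38.7 instead of 46.0 CPM. No cell of the 2 WT groups or of AppSAA ATV:4D9 reached 50. In AppSAA ATV:4D9 mouse 3, the 3 cells rich in red cell markers held 337, 13886 and 5800 UMIs of those markers, and 0, 9 and 4 Tfrc UMIs of the 974 of that mouse.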
